A study of Mus musculus with 12 samples.

Results

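Genes of the Pax, Six-family and Eya groups encode proteins that act upstream of the myogenic regulatory factors when muscle is made. Expression of 9 of them (Pax3, Pax7, Six2, Six4, Six5, Eya1, Eya2, Eya3 and Eya4) was followed in C2C12 cells, a mouse myoblast line that fuses into myotubes when serum is withdrawn. The 9 genes were chosen by symbol from the 16288 genes listed in at least 1 library. RNA sequencing covered 12 libraries in 6 groups of 2. Cells were taken at the proliferative stage (GM, growth in fetal bovine serum), or after the change to horse serum with insulin, by 24 h (DM 24h) and by 48 h (DM 48h). At each stage they had received the vehicle DMSO or 50 uM PFI-3, a bromodomain inhibitor directed at BRG1 and BRM, the motor subunits of SWI/SNF remodellers, and at Pbrm1. The compound or vehicle was given for 12 h ahead of harvest (GM) or of the medium change (DM), with fresh doses at 24 h intervals in the differentiation medium. All groups came from the same immortalized line, so a bulk value averages over every cell in the dish. The libraries are named A and B within a group, and the labels call them biological duplicates.

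Pax3 and Pax7 are paired-domain transcription factors that mark muscle progenitors in the embryo and satellite cells, the stem cells of adult muscle. Six-family proteins are homeodomain factors that bind MEF3 sites, among them one in the promoter of Myog, the gene for the differentiation factor myogenin. Eya proteins bind no DNA themselves. They are recruited by Six-family proteins as coactivators, and they also carry phosphatase activity. In muscle, Pax7 is known to decline as the progeny of satellite cells differentiate, whereas Six-family and Eya proteins act both in progenitors and in the start of the fast-fibre programme.

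The MEF3 site is shown here because it is the sequence through which Six-family proteins reach muscle promoters. The 9 letters TCAGGTTTC were searched on both strands of RefSeq promoter windows (GRCm38.p6, 250 bases before to 50 after each start). They occurred in 141 of 32851 windows, or 0.429%. Windows were at hand for 6 of the 9 genes, and 1 of these 6, Six4, held the letters. Of 44 genes with a window among the relatives, targets, cofactors and satellite cell markers described further on, 1 held them, Myog. Both stretches of 30 bases are given with the motif in capitals.
Myog, chr1:134289910-134289939, plus strand, which is the gene's strand: agaggggggcTCAGGTTTCtgtggcgttgg
Six4, chr12:73113325-73113354, plus strand, which is opposite to the gene: gatctggccgaTCAGGTTTCccccaggcca
The motif lay 76 to 84 bases before the Myog start and 91 to 99 bases before one of the annotated Six4 starts. The Six4 stretch overlaps a UTR of Six4 in GENCODE. A match of letters is a description of the window, and no binding was measured.

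Total expected counts ranged from 12576374 to 13658352 per library, and 12545 genes passed the low-count filter. Replicates differed more in GM than later: chi-square per degree of freedom reached 19.1 (DMSO) and 14.1 (PFI-3) for GM, while the 4 DM pairs gave 1.75 to 2.13. A count of 3 equalled 0.214 to 0.245 CPM (counts scaled to the size of the library), which is taken as the floor and covers counting error only. Myoblast markers (Myod1, Myf5, Des, Cdh15) summed to 489 CPM or more in every library. Myotube markers (Myog, Mymk, Ckm, Acta1, Myh3) summed to at most 11.4 CPM in GM and to at least 939 CPM in DM. Markers of adipocytes (at most 0.214 CPM), endothelium (1.22 CPM), macrophages (0.573 CPM) and neural cells (2.78 CPM) were near 0 in sum. Of the fibroblast markers Thy1 was at or near 0, while Pdgfra was expressed.

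Pax3, Six2 and Eya2 were close to the floor at every stage and did not pass the low-count filter. Pax3 had 21 reads over all libraries. Its counts were 0 and 2 in GM DMSO, 1 and 2 in GM PFI-3, 3 and 3 in DM 24h DMSO, 0 and 1 in DM 24h PFI-3, 1 and 2 in DM 48h DMSO, and 4 and 2 in DM 48h PFI-3. Only the library with 4 counts exceeded the floor. Six2, a homeodomain factor known from kidney progenitors, had 4 reads in 3 libraries, and Eya2 had 3 reads in 3 libraries. No difference between groups could be measured for these 3 genes at this depth. The other 6 genes had between 66 and 2800 counts in every library and are described by stage and then by treatment.

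**Figure D1:**
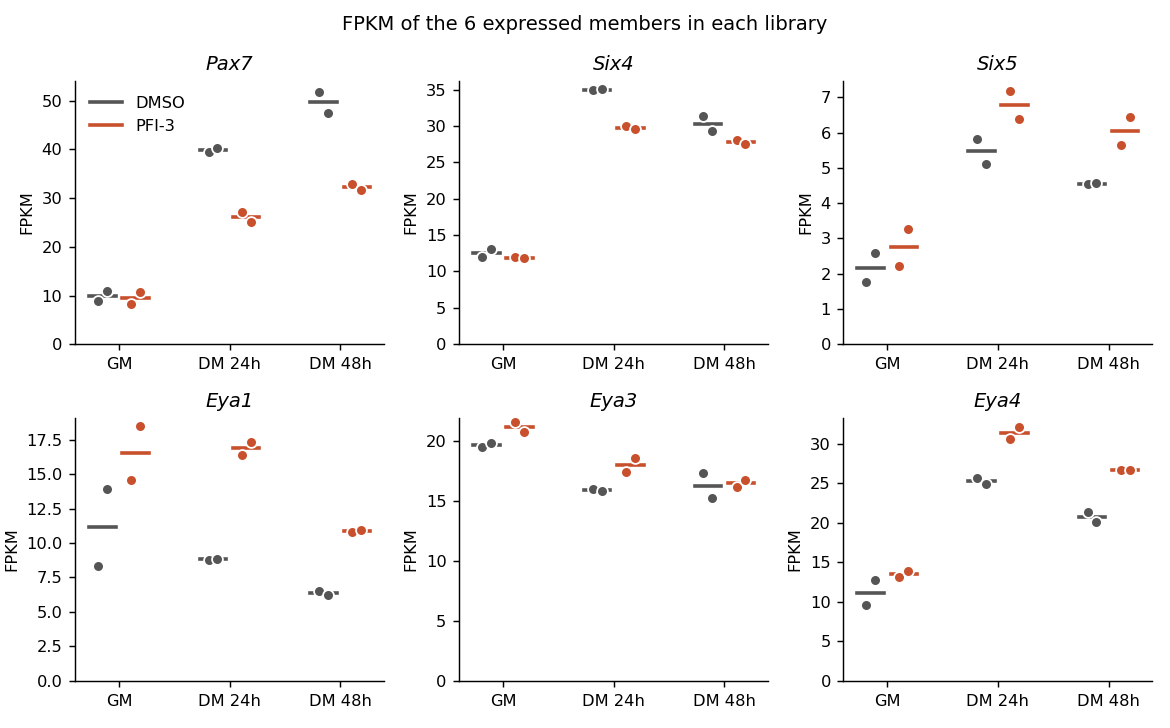
FPKM (fragments scaled by gene length and library size, vertical axis, from 0) of the 6 expressed genes in each library, by stage (horizontal axis) and treatment (DMSO grey, PFI-3 orange); points are libraries and bars are the mean of 2. Pax7 climbs from 8.90 and 10.99 in GM DMSO to 51.86 and 47.53 in DM 48h DMSO, and its PFI-3 libraries lie lower at both DM stages.

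Entry into differentiation with DMSO raised Pax7, Six4, Six5 and Eya4 and lowered Eya3. Eya1 was lower at DM 48h. Pax7 rose most, 3.88-fold by DM 24h and 5.04-fold by DM 48h. Of the 6 tested genes, 5 passed the test at DM 24h against GM (edgeR quasi-likelihood test, adjusted p under 0.05), where 60.6% of all genes tested were called (30.6% higher, 30% lower). All 6 passed at DM 48h against GM, where 73.1% were called (37.2% higher, 35.9% lower). With most genes called, these counts are near the background.

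Pax7 (chromosome 4, 139737059 to 139833530, minus strand, GRCm38.p6 as for all genes here) had an FPKM of 8.90 and 10.99 in GM DMSO, 39.55 and 40.23 in DM 24h DMSO, and 51.86 and 47.53 in DM 48h DMSO. The 3 groups did not overlap, and each later stage lay above the one before. The log2 fold change was 1.95 ± 0.11 (SE; edgeR adjusted p = 3.59e-08) at DM 24h and 2.33 ± 0.11 (edgeR adjusted p = 2.56e-09) at DM 48h, both against GM. From DM 24h to DM 48h it was 0.38 ± 0.11 (edgeR adjusted p = 0.0105), and Pax7 was the 1 member called there, against 48.1% of all genes (24.2% higher, 23.9% lower). That last call was lost without library A of DM 24h DMSO, without library A of DM 48h DMSO and with limma on FPKM, with adjusted p up to 0.0847. In bulk RNA, more cells that express Pax7 and more RNA per cell cannot be told apart.

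Six4, a factor that acts with other Six-family proteins in limb and trunk muscle (chromosome 12, 73099609 to 73114031, minus strand), had an FPKM of 12.01 and 13.13 in GM DMSO, 34.98 and 35.01 in DM 24h DMSO, and 31.36 and 29.24 in DM 48h DMSO. It rose 2.69-fold by DM 24h (log2 fold change 1.43 ± 0.06, edgeR adjusted p = 2.85e-09) and was 2.43-fold above GM at DM 48h. Six5, whose gene (chromosome 7, 19094544 to 19098549, plus strand) starts 723 bases beyond the end of Dmpk, was the lowest of the 6. Its FPKM was 1.75 and 2.58 in GM DMSO, 5.83 and 5.11 in DM 24h DMSO, and 4.54 and 4.56 in DM 48h DMSO. It rose 2.44-fold by DM 24h (log2 fold change 1.29 ± 0.20, edgeR adjusted p = 0.000122). Neither of them passed the test between DM 24h and DM 48h: the log2 fold changes were -0.14 (95% interval -0.28 to -0.01) for Six4 and -0.20 (-0.59 to 0.19) for Six5.

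The 3 expressed Eya genes moved apart. Eya4, known also as a deafness and cardiomyopathy gene (chromosome 10, 23102962 to 23350838, minus strand), rose 2.19-fold by DM 24h, from an FPKM of 9.63 and 12.72 to 25.66 and 24.89 (log2 fold change 1.13 ± 0.09, edgeR adjusted p = 7.15e-07). At DM 48h its FPKM was 21.36 and 20.15, still 1.88-fold above GM by the fit. Eya3 (chromosome 4, 132639025 to 132724765, plus strand) had an FPKM of 19.52 and 19.83 in GM, 15.98 and 15.85 in DM 24h, and 17.30 and 15.22 in DM 48h. It fell 1.28-fold by DM 24h (log2 fold change -0.36 ± 0.07, edgeR adjusted p = 0.0012) and was 1.2-fold below GM at DM 48h, a call lost in 2 of 21 alternatives, among them without library B of DM 48h DMSO (adjusted p up to 0.0927). Eya1, which acts with Six-family proteins in the embryonic limb and in fast fibres (chromosome 1, 14168953 to 14311035, minus strand), had an FPKM of 8.32 and 13.93 in GM, 8.74 and 8.87 in DM 24h, and 6.50 and 6.24 in DM 48h. It was 1.72-fold lower at DM 48h than in GM (log2 fold change -0.78 ± 0.18, edgeR adjusted p = 0.00154). Its 2 GM DMSO libraries differed 1.58-fold in CPM, and at DM 24h against GM it did not pass (-0.38, interval -0.75 to 0.00). The value was -0.01 without library B of GM DMSO and -0.67 without library A, where it passed the test; it also just passed without either GM PFI-3 library.

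PFI-3 lowered Pax7 and Six4 and raised Eya1 and Eya4 at both DM stages, while no gene of the 6 was called in GM. Pax7 was 1.58-fold (DM 24h) and 1.64-fold (DM 48h) lower, and Eya1 was 1.85-fold and 1.61-fold higher. At DM 24h 4 of 6 tested genes were called, against 23.6% of all genes (12.2% higher, 11.4% lower). At DM 48h 4 of 6 were called, against 27.4% (13.4% higher, 14% lower). In GM, edgeR called 0 of 6 against 11.6% of all genes (5.46% higher, 6.15% lower). Unadjusted p was under 0.05 for Six4 and Eya1 there. DESeq2 and limma also called 0, while the fits with a replicate block called 1, Eya1. Leaving out 1 library called up to 2. The comparisons with DMSO over stages and those with PFI-3 share the DMSO libraries.

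**Figure D2:**
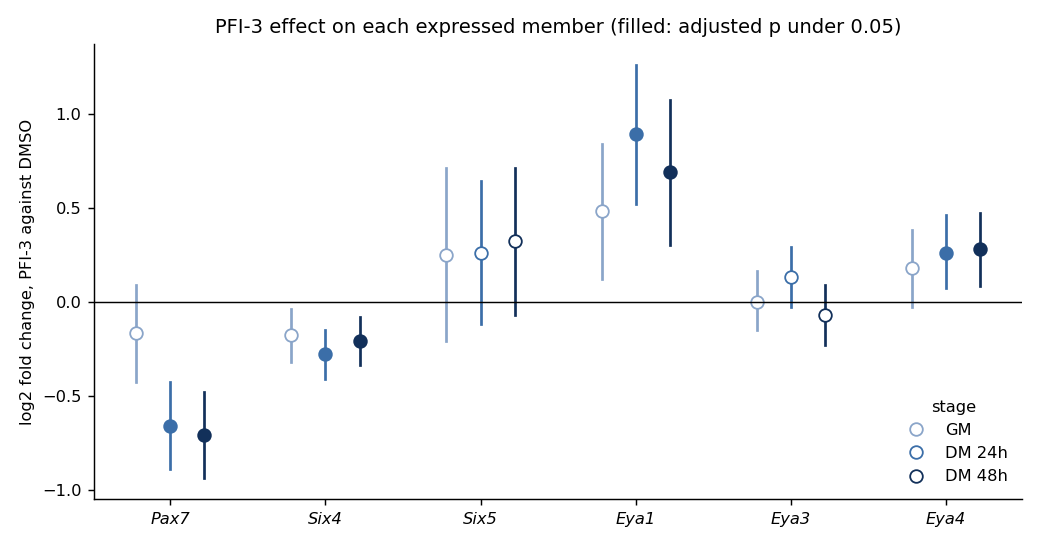
Log2 fold change of PFI-3 against DMSO (vertical axis) for the 6 expressed genes, in GM and at the 2 DM stages (light to dark); points are estimates over 2 libraries per group, lines are 95% intervals, and filled points have an adjusted p under 0.05. Pax7 and Six4 lie below 0 and Eya1 and Eya4 above 0 at each stage, and the filled points are the 4 genes at both DM stages.

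Pax7 with PFI-3 had an FPKM of 8.22 and 10.70 in GM, then 27.18 and 25.07 (DM 24h) and 32.85 and 31.61 (DM 48h). The GM groups overlapped, and both DM groups lay wholly below their DMSO group. The log2 fold change was -0.66 ± 0.11 (95% interval -0.89 to -0.43, edgeR adjusted p = 0.00112) at DM 24h and -0.71 ± 0.11 (-0.94 to -0.48, edgeR adjusted p = 0.000393) at DM 48h. In GM it was -0.17 (-0.43 to 0.09, edgeR adjusted p = 0.38), and of the 21 alternatives it passed there in 1, without library B of GM PFI-3 (0.0488). Both DM calls were kept under all 21 alternatives run, with values from -0.72 to -0.59 (DM 24h) and from -0.78 to -0.61 (DM 48h). In the order of its CPM, both DM PFI-3 groups stood above both GM groups and below both DM DMSO groups. Beside this, myotube markers were lower with PFI-3: they summed to 2270 CPM with DMSO and to 939 to 942 CPM with PFI-3 at DM 24h, and to 15300 to 15400 CPM and 10200 to 10400 CPM at DM 48h. Myoblast markers summed to 1750 to 1760 and 1280 to 1300 CPM at DM 24h, with DMSO and PFI-3. At DM 48h they summed to 3120 to 3210 and 2610 to 2740 CPM. Their sum was lower with PFI-3 in GM too, at 489 to 613 CPM against 782 to 809 CPM with DMSO. Taken singly, 2 of the 4 myoblast markers were called lower in GM. Only Cdh15 was called lower at either DM stage, and the other 3 were not called. The sums are thus not a shift of the whole set. Cdh15 is also counted among the satellite cell markers described further on. The part of these marker shifts in the Pax7 difference was not tested.

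Six4 with PFI-3 had an FPKM of 11.98 and 11.79 in GM, then 30.03 and 29.51 (DM 24h) and 28.08 and 27.50 (DM 48h). Its PFI-3 libraries lay below the DMSO libraries at all 3 stages. The shifts were small, with a log2 fold change of -0.28 ± 0.06 (edgeR adjusted p = 0.00587) at DM 24h and -0.21 ± 0.06 (edgeR adjusted p = 0.0218) at DM 48h. In GM it was -0.18 (95% interval -0.32 to -0.04, edgeR adjusted p = 0.0907). The DM 24h call was lost without library B of either DM 24h group (adjusted p up to 0.0558). The DM 48h call was lost with DESeq2, with limma on FPKM, without library A of DM 48h DMSO and without either DM 48h PFI-3 library (adjusted p up to 0.188, values from -0.26 to -0.12).

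Six5 with PFI-3 had an FPKM of 2.22 and 3.27 in GM, then 7.19 and 6.38 (DM 24h) and 5.66 and 6.44 (DM 48h). Its GM groups overlapped, its DM groups lay above DMSO, and it did not pass the test at any stage. The log2 fold changes were 0.25 (95% interval -0.21 to 0.71), 0.26 (-0.12 to 0.64) and 0.32 (-0.07 to 0.71) in GM and at the 2 DM stages. Six5 had 66 to 254 counts per library, the fewest of the 6, and its intervals are the widest. They exclude a fall of the size seen for Pax7 at DM. Fitting only the libraries compared called Six5 at both DM stages and Eya3 at DM 24h.

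Eya1 carried the largest rise. Its FPKM with PFI-3 was 14.57 and 18.47 in GM, then 16.39 and 17.35 (DM 24h) and 10.81 and 10.97 (DM 48h), and at each stage both values stood above both DMSO values. The log2 fold change was 0.89 ± 0.17 (95% interval 0.52 to 1.26, edgeR adjusted p = 0.00289) at DM 24h and 0.69 ± 0.18 (0.30 to 1.07, edgeR adjusted p = 0.013) at DM 48h. In GM it was 0.48 (0.12 to 0.84, edgeR adjusted p = 0.0823). The DM 24h call was kept under all 21 alternatives. The DM 48h call was lost when any 1 of the 4 DM 48h libraries was left out, with adjusted p up to 0.0892 and values from 0.65 to 0.76. In GM, Eya1 passed in 4 of the 21 alternatives, among them without library B of GM DMSO and without library A of GM PFI-3, and values ran from 0.19 to 0.85.

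Eya4 with PFI-3 had an FPKM of 13.11 and 13.94 in GM, then 30.57 and 32.18 (DM 24h) and 26.74 and 26.69 (DM 48h). Both DM groups lay above DMSO. The log2 fold change was 0.26 ± 0.09 (edgeR adjusted p = 0.049) at DM 24h and 0.28 ± 0.09 (edgeR adjusted p = 0.0384) at DM 48h. These calls were lost more often than those of Pax7, Six4 and Eya1 at the same stages: each was lost with DESeq2 and without any 1 of the 8 DM libraries, DMSO and PFI-3 alike, and the DM 24h call also with RLE scaling and limma, with adjusted p up to 0.226 (DM 24h) and 0.221 (DM 48h). Values over all alternatives lay between 0.23 and 0.36. In GM Eya4 was at 0.18 (95% interval -0.03 to 0.38) and of the 21 alternatives passed in 1, without library B of GM DMSO (0.00933). Eya3 did not pass at any stage. Its FPKM with PFI-3 was 21.60 and 20.70 in GM, then 17.42 and 18.54 (DM 24h) and 16.18 and 16.75 (DM 48h). The log2 fold changes of Eya3 were 0.00 (95% interval -0.15 to 0.16), 0.13 (-0.03 to 0.29) and -0.07 (-0.23 to 0.09), so that a change of the size of Eya1 at either DM stage lies outside the interval.

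Averaged over the 3 stages, PFI-3 changed 4 of the 6 genes, against 24.1% of all genes tested (11.2% higher, 12.9% lower). The average log2 fold change was -0.53 ± 0.10 for Pax7 (edgeR adjusted p = 0.00199) and -0.22 ± 0.04 for Six4 (edgeR adjusted p = 0.00202). The PFI-3 libraries of Six4 lay below DMSO at all 3 stages and those of Pax7 at both DM stages. It was 0.68 ± 0.11 for Eya1 (edgeR adjusted p = 0.000872) and 0.24 ± 0.06 for Eya4 (edgeR adjusted p = 0.00829). Those of Eya1 lay above DMSO at all 3 stages and those of Eya4 at both DM stages. The Eya1 gap in GM was narrow, with the nearest libraries, DMSO B and PFI-3 A, both at 59.9 CPM. Six5 libraries also lay above DMSO at both DM stages, and Eya3 libraries at DM 24h, without a call. The share of all genes with groups apart in this way was not counted, so the separation is a description only. Six5 averaged 0.28 ± 0.11 (95% interval 0.05 to 0.51, edgeR adjusted p = 0.0761) and Eya3 0.02 ± 0.05 (edgeR adjusted p = 0.793). The 4 calls of the main fit were kept under all 19 alternatives of this model. Six5 passed in 4 of these alternatives, among them both limma fits.

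The test of whether the PFI-3 effect differed between stages called 1 member. For Pax7 the effect at DM 48h minus that in GM was -0.54 ± 0.16 on the log2 scale (edgeR adjusted p = 0.0404), where 14.5% of all genes were called (8.25% higher, 6.29% lower). DM 24h minus GM gave -0.49 ± 0.16 for Pax7 (edgeR adjusted p = 0.121; passed in 3 of 21 alternatives, among them without library B of GM DMSO and without library A of GM PFI-3, lowest 0.0174), with 0 members called against 3.37% of all genes (1.78% higher, 1.59% lower). Between DM 48h and DM 24h 0 members were called against 12.1% of all genes (7.12% higher, 4.97% lower), and the smallest unadjusted p there was 0.0853, for Eya3. Without library A of GM DMSO, Eya1 also passed for both DM stages against GM, at up to 0.71 and 0.50. The Pax7 call at DM 48h against GM was lost under 13 of 21 alternatives, among them limma on FPKM, the fit of only the libraries compared, and leaving out library A of GM DMSO, library B of GM PFI-3 or any 1 of the 8 DM libraries. Values ran from -0.72 to -0.33 and adjusted p from 0.00356 to 0.137.

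Compared per length, the genes changed places with stage and treatment. In GM with DMSO, Eya3 had the highest mean FPKM, 19.7. Six4 at 12.6, Eya4 at 11.2, Eya1 at 11.1 and Pax7 at 9.95 followed, with each neighbour in this order overlapping the next, and Six5 stood apart at 2.17. At DM 24h with DMSO the order was Pax7 at 39.9, Six4 at 35.0, Eya4 at 25.3, Eya3 at 15.9, Eya1 at 8.80 and Six5 at 5.47, with no overlap between neighbours. At DM 24h with PFI-3, Eya4 stood first at 31.4, above Six4 at 29.8 and Pax7 at 26.1, again with no overlap. At DM 48h Pax7 stood first with either treatment, at 49.7 with DMSO and 32.2 with PFI-3.

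**Figure D3:**
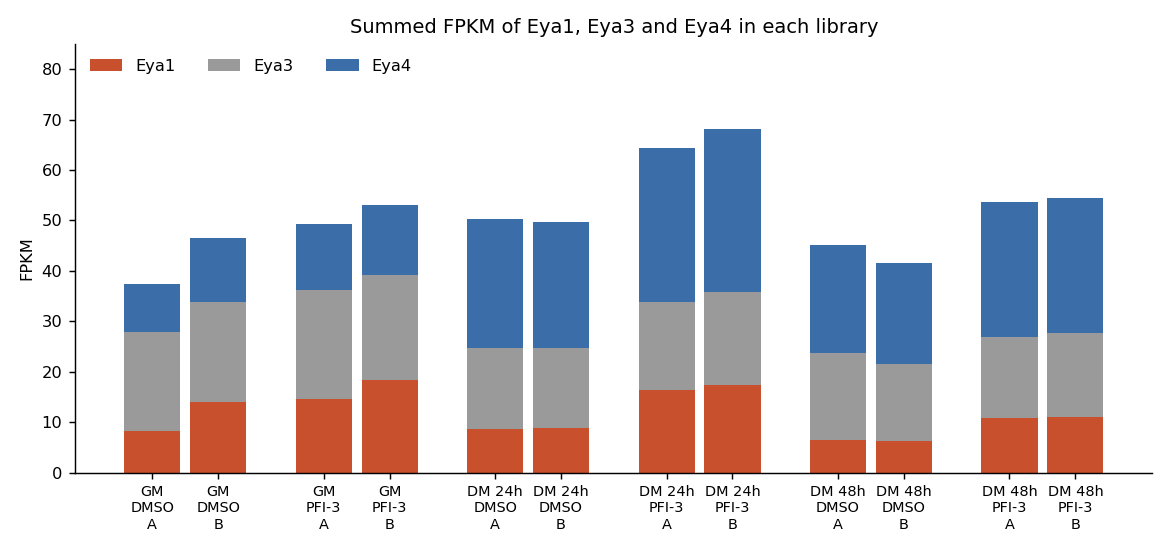
Summed FPKM (vertical axis, from 0) of Eya1 (orange), Eya3 (grey) and Eya4 (blue) in each of the 12 libraries, ordered by stage and treatment; Eya2 is at 0 to 0.04. The sum is highest in the DM 24h PFI-3 libraries, at 64.4 and 68.1, and the Eya1 portion is larger with PFI-3 than with DMSO at both DM stages.

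The Eya genes were also taken as shares of their summed FPKM, since the family members form alternative partners of the same Six-family proteins. The sum was 37.5 and 46.5 in GM DMSO, 50.4 and 49.6 in DM 24h DMSO, and 45.2 and 41.6 in DM 48h DMSO. With PFI-3 it was 49.3 and 53.1 in GM, then 64.4 and 68.1 (DM 24h) and 53.7 and 54.5 (DM 48h), above both DMSO libraries of each stage. FPKM is not TMM-scaled, and the sums were not compared in CPM. In GM, Eya3 had a mean FPKM of 19.7 with DMSO and 21.1 with PFI-3, but 104 CPM with either. Eya3 was the main Eya gene in GM with DMSO, at 52.1% and 42.7% of the sum. Eya4 took its place at DM 24h with 50.9% and 50.2%. Eya1 made up 17.3% and 17.9% at DM 24h with DMSO and 25.5% in both PFI-3 libraries, and 14.4% and 15.0% against 20.1% in both at DM 48h. In GM the Eya1 shares were 22.2% and 30% with DMSO and 29.5% and 34.8% with PFI-3, and overlapped.

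Other Six-family, Pax and Dach genes and premyogenic regulators numbered 21, of which 7 were tested. With PFI-3, 1 was lower in GM, 2 were lower by DM 24h and 3 by DM 48h, beside 6.15%, 11.4% and 14% of all genes. The median log2 fold change was -0.24, -0.40 and -0.05, against -0.01, -0.001 and 0.001 over all genes. Pitx3, a homeodomain factor of differentiating muscle, was lower at every stage, with a log2 fold change of -1.45 in GM (edgeR adjusted p = 0.000565), -0.78 at DM 24h (0.00177) and -0.99 at DM 48h (0.000252). Meox1, a somite homeodomain factor, and Msc, a bHLH repressor known as musculin, were called lower on few reads. Meox1 had 16 and 11 counts with DMSO and 1 and 2 with PFI-3 at DM 48h (edgeR adjusted p = 0.00373), and 13 and 10 against 4 and 3 at DM 24h (edgeR adjusted p = 0.0451). Msc had 18 and 38 against 3 and 6 at DM 48h (edgeR adjusted p = 0.0399). The Meox1 call at DM 24h and the Msc call were lost in 11 and 10 of 20 alternatives. The Pitx3 call in GM was lost in 1 of 21, the fit of only the libraries compared (edgeR adjusted p = 0.108).

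Genes known as targets of Pax3 or Pax7 numbered 8, of which 7 were tested. PFI-3 lowered 2 in GM, 3 by DM 24h and 3 by DM 48h, and raised 0, 1 and 1. Over all genes tested 6.15%, 11.4% and 14% were lower and 5.46%, 12.2% and 13.4% higher. The median log2 fold change was -0.21, -0.33 and -0.34. Met, the receptor for hepatocyte growth factor that guides migrating progenitors, was lower at each stage, at -0.29, -0.33 and -0.63 (edgeR adjusted p = 0.0293, 0.00826 and 9.38e-05). Fgfr4, a growth factor receptor of myoblasts, was lower in GM at -1.32 (edgeR adjusted p = 0.0244, on 22 to 112 counts) and at DM 24h at -0.59 (0.0165). Dmrt2, which acts upstream of Myf5 in the somite, was lower at DM 24h (-0.50) and DM 48h (-0.56), and Itm2a at DM 48h (-1.09, edgeR adjusted p = 0.000978). Id3, an inhibitor of bHLH factors, went the other way, with counts of 286 and 283 with DMSO against 937 and 884 with the compound at DM 24h (a log2 change of 1.64, edgeR adjusted p = 2.19e-05). Myf5 and Myod1 did not pass at any stage. The Met call in GM was lost in 12 of 21 alternatives and the Fgfr4 call at DM 24h in 7. The Fgfr4 call in GM was lost in 5, among them without library B of GM DMSO and without library A of GM PFI-3 (adjusted p up to 0.376), and its value ran from -1.93 to -0.68 without 1 library. Without 1 library the number of targets called lower ran from 1 to 4 in GM and from 0 to 4 at DM 24h.

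**Figure D4:**
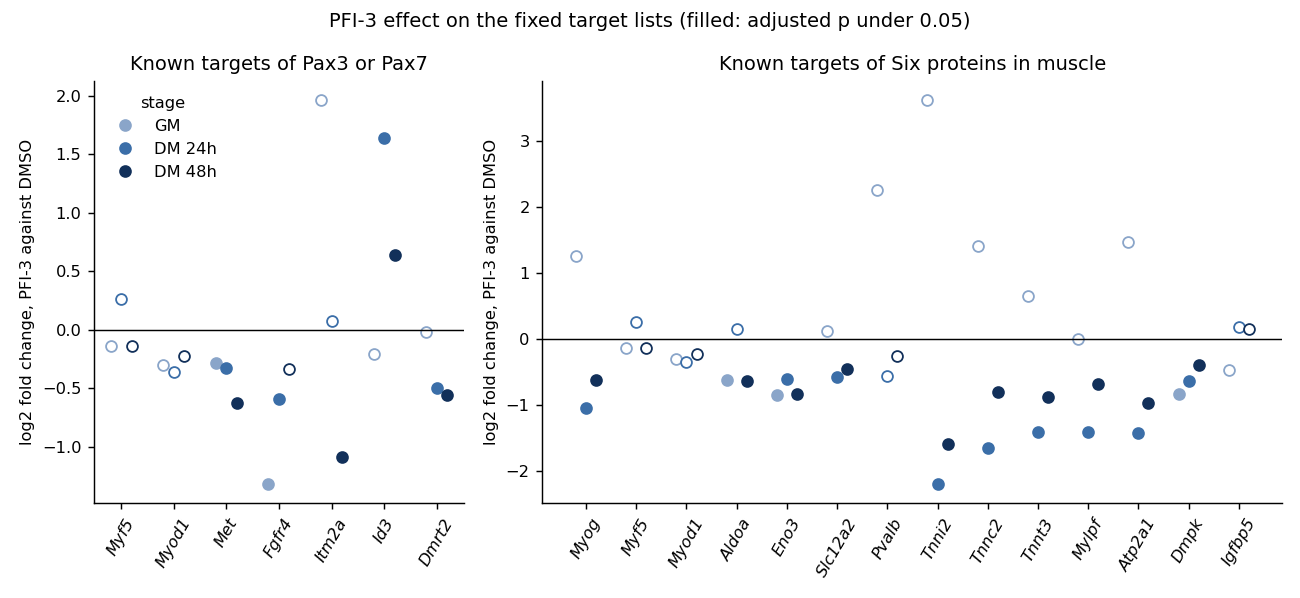
Log2 fold change of PFI-3 against DMSO (vertical axes) for tested targets of Pax3 or Pax7 (left) and of Six-family proteins (right), by stage (light to dark); filled points have an adjusted p under 0.05. At the DM stages the filled points of the right panel all lie below 0, and the open GM points of Myog, Pvalb, Tnni2, Tnnc2, Tnnt3, Mylpf and Atp2a1 rest on at most 13 counts per library.

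Genes known as targets of Six-family proteins in muscle numbered 14, all tested. PFI-3 lowered 9 (DM 24h) and 10 (DM 48h) and raised 0, against 11.4% and 14% of all genes lowered. The median log2 fold change was -0.62 and -0.63. The lowered genes included Atp2a1, the calcium pump of fast fibres (-1.43 at DM 24h, -0.97 at DM 48h), Mylpf, a fast myosin light chain (-1.42 and -0.68), and Tnnt3, a fast troponin T (-1.42 and -0.89). Tnnc2 fell by 1.66 at DM 24h and Tnni2 fell by 1.59 at DM 48h on the log2 scale. Limma on log2(FPKM + 0.1) lost the Tnnc2 call at DM 24h and the Tnni2 and Tnnt3 calls at DM 48h (limma adjusted p up to 0.107). In GM, 3 were called lower and 0 higher, with a median of 0.05, beside 6.15% of all genes lower and 5.46% higher. These were the glycolytic enzymes Eno3 (-0.85, edgeR adjusted p = 0.000175) and Aldoa (-0.62, 0.000201), and Dmpk, the kinase gene next to Six5 (-0.84, 0.00312). The fit of only the libraries compared lost these 3 calls (edgeR adjusted p up to 0.217) and called 0 of the 14 targets lower in GM. Several of these targets are contractile genes of differentiated muscle, and their list shares Myog with the myotube markers, of which 5 of 5 were lower at both DM stages. The part of the myotube programme in this count was not tested.

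Cofactors and modifiers of the Pax, Six-family and Eya proteins numbered 11, all tested. With PFI-3, 1 was lower in GM with none higher, 2 were higher and 1 lower by DM 24h, and 0 either way at DM 48h. The counts in GM and at DM 24h are near the share over all genes. That share was 5.46% higher and 6.15% lower in GM, and 12.2% higher and 11.4% lower by DM 24h. At DM 48h it was 13.4% higher and 14% lower, beside 0 of 11. At DM 48h unadjusted p was under 0.05 for Kmt2d, Tle1 and Tle4 (edgeR adjusted p = 0.0573, 0.101 and 0.05), genes named after their values were seen, DESeq2 called 0, and the number called lower ran from 0 to 4 over the alternatives. The median log2 fold change was -0.06, -0.07 and 0.03. Tle2, a Groucho corepressor, was higher at DM 24h (0.69, edgeR adjusted p = 0.0014), as was Sobp, a binding partner of Six-family proteins (0.50, 0.033). Carm1, the arginine methyltransferase that modifies Pax7, was lower in GM (-0.31, 0.0344) and at DM 24h (-0.26, 0.0452). The Carm1 calls were lost in 14 and 11 of 21 alternatives and the Sobp call in 7.

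Satellite cell surface and quiescence markers numbered 10, of which 8 were tested. PFI-3 lowered 4 in GM, 3 by DM 24h and 3 by DM 48h, and raised 0, 1 and 0. Over all genes 6.15%, 11.4% and 14% were lower and 5.46%, 12.2% and 13.4% higher. The median was -0.57, -0.32 and -0.24. Cdh15, the M-cadherin of myoblast contacts, was lower at each stage, at -1.39, -0.90 and -0.33 (edgeR adjusted p = 2.87e-05, 0.000105 and 0.0339). Itga7, the laminin receptor subunit, was lower in GM (-0.50) and at DM 24h (-0.61), Vcam1 in GM (-0.65), and Cxcr4 in GM (-0.95) and at DM 48h (-0.54). Heyl, a Notch effector, was lower at DM 24h (-1.39, edgeR adjusted p = 3.45e-05) and DM 48h (-0.76, 0.00137), and the proteoglycan Sdc4 was higher at DM 24h (0.54, 0.00271). The DM 48h calls of Cdh15 and Cxcr4 were each lost in 10 of 21 alternatives. The fit of only the libraries compared lost the GM calls of Itga7, Vcam1 and Cxcr4 (edgeR adjusted p up to 0.318). In that fit 1 marker was called lower in GM. Beside these, the fibroblast marker Pdgfra rose (1.14 at DM 24h, 1.07 at DM 48h) and Dpt fell at DM 48h (-1.27). The summed fibroblast markers ran from 6.98 to 11.1 CPM with DMSO and from 11.1 to 17.6 CPM with PFI-3 in GM. They went from 13.9 to 15.2 CPM with DMSO to 27.1 to 27.9 CPM with PFI-3 at DM 24h, and from 16.3 to 16.9 CPM to 24.5 to 26.6 CPM at DM 48h, and their part in these results was not tested.

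The genes most like each member were found by Pearson correlation of log2 CPM over the 12 libraries, among 10366 other genes whose mean CPM was 5 or more. The 12 points share stage and treatment, and the values are given as a description. Nearest to Pax7 were Wnt9a (r = 0.9955), Notch1 (0.9949) and Esr1 (0.9927). Nearest to Six4 were Atp2b4 (0.996), Amotl1 (0.9944) and Tcf12 (0.9942). Six5 and Eya4 shared 2 of their 3 nearest genes, Mrc2 and Rfx5, with r of 0.9893 and 0.9881 to Six5 and 0.992 and 0.9946 to Eya4. The gene not shared was Mrgprf for Six5 (0.988) and Tax1bp1 for Eya4 (0.995), which was the nearest to Eya4. Nearest to Eya1 was Emilin2 (0.9793), followed by Mras and Coro1b, and nearest to Eya3 was Dtwd1 (0.9673), followed by Rnft1 and Mrpl34.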

How the data were processed

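Total RNA from C2C12 cells gave 12 sequenced libraries. The authors deposited 1 table per library with an expected count and an FPKM value per gene, per the file headers. The submitters' processing notes name HISAT, StringTie, Cufflinks, Bowtie, RSEM, DESeq2 and the build mm10. Genes not listed in a library were taken as 0. Of 6963 cases listed in only 1 replicate of a group, 97.0% had at most 5 counts. Expected counts were rounded and tested with edgeR 4.0.16 (R 4.3.3): quasi-likelihood test, TMM scaling, low-count filter, 1 model of 6 groups over 12 libraries, Benjamini-Hochberg adjustment over 12545 genes, calls at adjusted p under 0.05. The average effect came from a model with stage and treatment as additive terms. Intervals are 95%. With 2 libraries per group, the spread of each gene was estimated over all 6 groups together. The p-values and intervals use this shared spread. Since GM replicates differed more than DM replicates, GM intervals may be too narrow and DM intervals too wide. FPKM was used for levels between genes, CPM (TMM-scaled) for order and overlap within a gene.

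Groups and letters came from the sample titles. The members and gene lists were chosen with earlier results of these data known. All members were named, and list genes by rule: those called with PFI-3, at most the 4 smallest adjusted p per list and stage, and the 3 nearest genes by correlation for each member. Kmt2d, Myf5, Myod1, Myog, Pvalb, Tle1 and Tle4 stand outside that rule. A result for 1 list gene is not reported here. Alternatives were RLE scaling, DESeq2 1.42.0, no filter, a mean of at least 10 counts, limma 3.58.1 on log2(FPKM + 1) and log2(FPKM + 0.1), only the libraries compared, a replicate block, and leaving out each library. A fit of only the compared libraries with the block, and all alternatives for the lists, were chosen after seeing the data. The count test was tested on simulated data. Locations, promoter sequences and exon overlap came from RefSeq (GRCm38.p6) and GENCODE. No member shared exonic bases with another gene. Figures were drawn with matplotlib 3.10.9.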

Additional observations from a re-analysis of the deposited data

Results flagged for a closer look

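The PFI-3 effect on Pax7 differed between DM 48h and GM by -0.54 on the log2 scale (edgeR adjusted p = 0.0404), by a test of the difference itself. The effect was -0.71 at DM 48h, where both PFI-3 libraries lay below both DMSO libraries, and -0.17 in GM, where the groups overlapped. The difference from DM 24h to GM was of similar size, -0.49, and did not pass (edgeR adjusted p = 0.121), although it did in 3 of 21 alternatives (lowest adjusted p 0.0174). The GM replicates are the most spread of the series, and the call was lost under 13 of 21 alternatives.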

How the results depend on the processing

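Of 1248 values of single members under the alternatives, 1157 stayed on the same side of the threshold, called or not called, 52 lost a call, 39 gained one and 0 turned a called direction. Counts of members called moved as follows. At DM 48h with PFI-3, DESeq2 called 2 in place of 4. For the difference of the PFI-3 effect between DM 48h and GM, both limma fits and the fit of only the libraries compared called 0 in place of 1. For DMSO at DM 48h against DM 24h, the fit of only the libraries compared called 4 in place of 1, with or without the replicate block. Leaving out 1 library gave 0 to 2 members in GM with PFI-3 (0 with all), 2 to 4 at DM 24h (4), 1 to 4 at DM 48h (4), 0 to 4 for DMSO at DM 48h against DM 24h (1), 0 to 1 for the effect at DM 24h against GM (0) and 0 to 1 at DM 48h against GM (1). Deviations of same-letter DMSO and PFI-3 libraries from their group means correlated at 0.395 (GM), 0.013 (DM 24h) and 0.03 (DM 48h). Libraries of a letter thus went together in part in GM and hardly at the DM stages. The main fit did not use the letters. With the replicate block over all libraries, 1 member was called in GM with PFI-3 (Eya1) in place of 0, and 2 for DMSO at DM 48h against DM 24h in place of 1. The fit of only the compared libraries with the replicate block called 1 in GM, 1 for the effect at DM 24h against GM (Pax7), and 5 in place of 6 for DMSO at DM 48h against GM, where Eya3 was lost.

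Counts over all genes also moved, and the cause was not tested. The fit of only the libraries compared called 38 genes in GM in place of 1456, 5603 (DM 24h) in place of 2966 and 5644 (DM 48h) in place of 3438, and 92, 1033 and 4170 for the stage differences in place of 423, 1824 and 1517. With the block these were 922, 5715, 6077, 803, 2267 and 4344. Without 1 library the ranges were 1020 to 2742, 1323 to 3948, 1961 to 4323, 89 to 1002, 1018 to 2935 and 794 to 2421. In the lists, targets of Six-family proteins called lower ran from 8 to 10 at DM 24h (9) and from 5 to 11 at DM 48h (10). A fit that leaves 1 library in a group assumes that it varies like the others. Depth limits Pax3, Six2 and Eya2, which could not be tested.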
